A study of Homo sapiens with 4 samples.

Results

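The 10 genes described here are markers used for glioma stem cells and for the glial lineages: NES, VIM, GFAP, SOX2, SOX9, CD44, PROM1, FABP7, OLIG2 and CSPG4. They were taken by gene symbol from a deposited table of 57820 genes, and each symbol had a single row. RNA was measured in U87, an established human glioma line grown in serum, with 2 libraries labelled shNT, the control, and 2 labelled shGlud1, a knock-down of GLUD1, which encodes mitochondrial glutamate dehydrogenase. All 4 libraries came from cells held in low glucose for 6 h, so low glucose is shared by both groups and its own effect is not measured. The number of knock-down constructs or clones is not in the labels. Nor do they say whether libraries with the same label were grown as separate cultures. The p-values therefore rest on a spread within pairs that may be technical.

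Glioma cells are often sorted into states by such markers. NES, VIM and GFAP encode intermediate filament proteins, cytoskeletal polymers that change from nestin and vimentin in progenitor cells towards GFAP in mature astrocytes. SOX2, SOX9 and OLIG2 encode transcription factors of neural progenitors, SOX9 being linked to the astrocyte and OLIG2 to the oligodendrocyte lineage. CD44 (the hyaluronan receptor), PROM1 (prominin-1, also called CD133) and CSPG4 (the proteoglycan NG2) encode surface proteins, and FABP7 encodes a fatty acid binding protein of radial glia.

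The libraries held 16546849 to 18537314 expected counts, which are estimated reads per gene. Levels are given as CPM, a gene's counts scaled to a fixed library total, with TMM factors that correct for library make-up. These factors ran from 0.826 to 1.24 and were higher in both shGlud1 libraries than in either shNT library, so a share of total counts and a TMM-scaled level can move differently. With total counts alone the median log2 fold change of all genes was 0.57, against 0.06 with TMM factors. GLUD1 was at 78.1 and 76.5 CPM in shNT and at 34.0 and 44.5 CPM in shGlud1, and fell by 0.98 on the log2 scale (adjusted p = 1.26e-12 in the quasi-likelihood test of edgeR, which gives every adjusted p below unless another tool is named). With total counts the log2 fold change of GLUD1 was smaller, at -0.45 (adjusted p = 0.003), or -1.02 against the median of all genes on that scale. Where a library is left out below, its group is 1 library, which is assumed to vary like the other group, so a lost call can come with a fold change that barely moved. Of 14616 genes tested, 61.0% were called changed at an adjusted p under 0.05, 31.9% as risen and 29.1% as fallen.

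Among the 10 marker genes, NES, VIM and SOX9 rose, CSPG4 and FABP7 fell with TMM scaling, and CD44 was not called. GFAP, SOX2, PROM1 and OLIG2 had at most 6 counts in any library and were too low to test. The 3 risen and 2 fallen among 6 tested genes stand beside 31.9% risen and 29.1% fallen among all genes tested. The groups did not overlap for any of the 6, with 4 higher and 2 lower in shGlud1, where 42.8% of all genes were apart and higher and 38.2% apart and lower. Most genes thus differed between these groups, and the members' counts are to be read against that. The counts of risen and fallen genes in the lists below are to be read against the same shares. With total counts these shares were 51.9% risen and 13.7% fallen, and with the length trend removed 27.0% and 28.7%. The median log2 fold change of the 6 was 0.40, and that of all genes tested was 0.06. SOX2, PROM1, GFAP and OLIG2, often used as markers of stem, astrocyte and oligodendrocyte states, were at or near 0 in all 4 libraries. The other 6 members had counts in all 4 libraries, led by VIM, CD44 and CSPG4. The name of a stem and glial lineage set thus describes how the genes were chosen, not a state shown in these cells. In bulk RNA, fewer cells of a type and less RNA per cell cannot be told apart.

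The windows before the start sites of NES and VIM, the members with the largest rises, and of CSPG4, which fell with TMM scaling, are shown to set members that moved in opposite directions side by side. The sequences are RefSeq's on GRCh38.p14, on the strand of each gene, and cover the 250 bases before the annotated start. NES lies on the minus strand at chr1:156677408-156677657, VIM on the plus strand at chr10:17227991-17228240 and CSPG4 on the minus strand at chr15:75712849-75713098. Capitals mark exact matches to the motifs searched.
NES: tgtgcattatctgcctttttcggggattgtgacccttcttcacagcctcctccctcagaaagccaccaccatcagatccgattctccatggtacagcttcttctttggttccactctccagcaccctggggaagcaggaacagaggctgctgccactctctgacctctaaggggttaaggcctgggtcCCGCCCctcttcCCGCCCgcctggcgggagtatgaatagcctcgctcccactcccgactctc
VIM: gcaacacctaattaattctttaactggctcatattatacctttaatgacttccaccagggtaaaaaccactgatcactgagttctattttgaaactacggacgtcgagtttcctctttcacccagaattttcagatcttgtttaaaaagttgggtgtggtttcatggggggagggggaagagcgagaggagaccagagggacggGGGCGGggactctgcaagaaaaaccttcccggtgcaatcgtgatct
CSPG4: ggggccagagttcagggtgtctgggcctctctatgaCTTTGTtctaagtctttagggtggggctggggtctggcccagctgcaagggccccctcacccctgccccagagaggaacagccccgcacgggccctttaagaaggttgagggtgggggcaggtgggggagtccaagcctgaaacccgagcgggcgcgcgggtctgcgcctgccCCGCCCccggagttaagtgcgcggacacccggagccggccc
Each motif was searched on both strands. The GC box (GGGCGG), read as CCGCCC on the other strand, was present in all 3 windows, and it is in 42.6% of the 35116 promoter windows of this length. It begins 62 and 50 bases before the NES start, 46 before the VIM start and 41 before the CSPG4 start. The CSPG4 window also has CTTTGT, the reverse complement of ACAAAG, from 214 bases before the start, and ACAAAG is in 13.7% of all windows. The CCAAT box, in 32.0% of all windows, had no match here. The TATA motif TATAAA, in 10.7% of all windows, had none either. The AP-1 motif TGACTCA, in 4.20% with its reverse complement counted, also had none, and no 2 of these motifs overlap in the 3 windows. The FABP7 window, not shown because it runs into the annotated transcript, had no GC box, 3 matches to CCAAT and 1 to ACAAAG. The GC box was also in the windows of CD44, which was not called, and of SOX2, which had no count. A PROM1 window held it too, and another PROM1 window held the AP-1 motif. RefSeq windows were matched for 7 of the 10 members, and SOX9, GFAP and OLIG2 are not shown.

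The intermediate filament genes held the largest rises of the set. VIM (ENSG00000026025, GRCh38 chromosome 10, 17228259 to 17237593) had 33099 and 34880 counts in shNT against 88760 and 113264 in shGlud1. Its level was 2425 and 2279 CPM in shNT and 4436 and 4915 CPM in shGlud1, so both shGlud1 libraries lay above both shNT libraries. It rose by 0.99 on the log2 scale (SE 0.17, adjusted p = 5.19e-08). VIM alone took 0.200% and 0.193% of all counts in shNT and 0.510% and 0.611% in shGlud1. Per kb of its longest annotated transcript it stood 126th and 133rd among the tested genes in the shNT libraries, and 23rd and 15th in the shGlud1 libraries. The rank of CD44, a gene not called with TMM factors, also moved up, from 778th and 759th to 526th and 418th. Those of CSPG4 and FABP7 moved down. A rank depends on the levels of all other genes too, so it does not measure the rise of VIM alone.

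NES (ENSG00000132688, GRCh38 chromosome 1, 156668763 to 156677397), which encodes nestin, was low in shNT, with 110 counts in each library. In shGlud1 it had 596 and 656 counts. Its level went from 8.06 and 7.19 CPM to 29.8 and 28.5 CPM, with no overlap between the groups. NES rose by 1.93 (SE 0.18, adjusted p = 3.74e-26) on the log2 scale, or 3.82-fold, and 2.44% of all tested genes had a higher log2 fold change. Within a library, where no scaling between libraries enters, NES had 3.32 and 3.15 counts per 1000 VIM counts in shNT and 6.71 and 5.79 in shGlud1. NES was thus higher in shGlud1 relative to VIM too.

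GFAP (ENSG00000131095, GRCh38 chromosome 17, 44903161 to 44916937), the filament protein of mature astrocytes, had 2 and 6 counts in shNT and 4 and 4 in shGlud1. Summed over the libraries of a group, this is 0.231 CPM of total counts in shNT (95% exact Poisson interval 0.0996 to 0.455) and 0.223 in shGlud1 (0.0961 to 0.439). These intervals, which cover counting error only, overlap nearly fully, and a difference was not detectable at this depth. The genes CCDC103 and FAM187A overlap GFAP on the opposite strand and share 2230 exon bases with it. CCDC103 had 43.3 to 107 counts per library. The kit did not mark strand, so how reads of the shared bases were divided is uncertain.

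**Figure D1:**
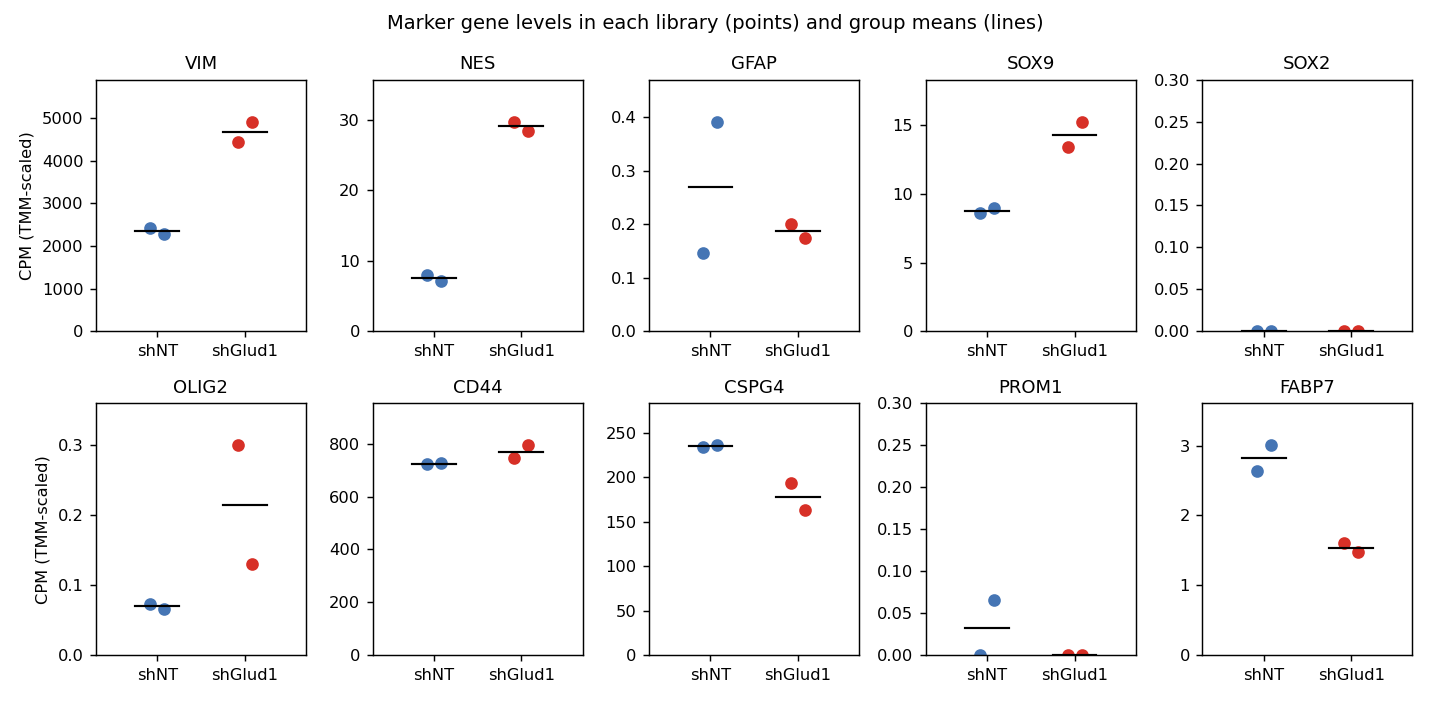
Level of each marker gene in CPM with TMM factors (vertical axis, linear, a separate range for each gene) in the shNT and shGlud1 libraries. Points are libraries and black lines are means of 2 libraries. VIM, NES, SOX9 and CD44 lie higher in both shGlud1 libraries, though CD44 was not called. CSPG4 and FABP7 lie lower, and the panels of GFAP, SOX2, OLIG2 and PROM1 cover at most 6 counts.

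A list of 13 other genes for intermediate filament proteins and their partners gave 7 that could be tested, of which 3 rose and 2 fell (median log2 fold change 0.52). LMNB1, which encodes lamin B1 of the nuclear envelope, rose from 5.30 ± 0.48 to 22.3 ± 2.51 CPM (SD, n = 2 in each group here and below) and had a log2 fold change of 2.07. Log2 fold changes of other list genes follow in brackets. LMNB2 (0.57) and PLEC (0.60), the gene of the linker protein plectin, rose with TMM scaling. PLEC was not called, at -0.10, when a trend on transcript length was removed, and LMNB2 was not called there either, at 0.26. PLEC also lost its call without shNT replicate 2 (adjusted p = 0.0621). The median of the list was -0.095 with that trend removed. The keratin genes KRT8 (-0.72) and KRT18 (-1.95) fell, KRT8 not being called with total counts (-0.20). The list as a whole had 5 risen and 1 fallen under total counts, where 51.9% of all genes rose and 13.7% fell. Neurofilament genes NEFL, NEFM and NEFH had at most 8 counts in any library.

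Of the 3 transcription factor genes, SOX9 alone had enough counts to test. SOX9 (ENSG00000125398, GRCh38 chromosome 17, 72121020 to 72126420) had 118 and 137 counts in shNT and 268 and 352 in shGlud1. Its level was 8.64 and 8.95 CPM in shNT and 13.4 and 15.3 CPM in shGlud1, again without overlap. SOX9 rose by 0.70 (SE 0.19, adjusted p = 0.000691) on the log2 scale, or 1.63-fold. It rose less than NES: the count of NES per SOX9 count was 0.932 and 0.803 in shNT and 2.22 and 1.86 in shGlud1. SOX9 lies within the annotated span of SOX9-AS1 on the opposite strand, with which it shares no exon bases.

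SOX2 (ENSG00000181449, GRCh38 chromosome 3, 181711924 to 181714436), a core factor of neural and glioma stem cells, had no count in any of the 4 libraries. A count of 0 allows up to 3 counts, which is 0.162 to 0.181 CPM of total counts in these libraries. SOX2-OT, the long noncoding RNA gene that spans SOX2 on the same strand, had a single count in all, in shGlud1 replicate 2. OLIG2 (ENSG00000205927, GRCh38 chromosome 21, 33025845 to 33029196) had 1 and 1 counts in shNT and 6 and 3 in shGlud1. Summed by group this is 0.0577 CPM of total counts in shNT (95% exact Poisson interval 0.00699 to 0.208) and 0.250 in shGlud1 (0.114 to 0.475). The libraries do not overlap but these intervals do, and OLIG2 could be fitted only with no filter on low counts, where its adjusted p was 0.502.

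Other SOX genes were mostly at or near 0. Of 16 other SOX genes, 12 had fewer than 10 counts summed over the 4 libraries, and SOX1, SOX3, SOX10, SOX11, SOX17 and SOX21 had none. The 3 that could be tested all rose: SOX12 from 4.88 ± 1.41 to 22.8 ± 1.85 CPM (2.21), SOX15 from 1.94 ± 0.16 to 6.10 ± 0.84 CPM (1.65), and SOX13 from 10.6 ± 0.71 to 15.4 ± 1.17 CPM (0.54, adjusted p = 0.00794). All 3 were also called with total counts and with either trend removed, but SOX13 was not called with DESeq2 (adjusted p = 0.0624) or without shNT replicate 2 (0.119).

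CD44 had the highest level per kb of the surface protein genes. CD44 (ENSG00000026508, GRCh38 chromosome 11, 35138870 to 35232402) had 9886 and 11100 counts in shNT and 14891 and 18294 in shGlud1. With TMM factors its level was 724 and 725 CPM in shNT and 744 and 794 CPM in shGlud1, and its log2 fold change of 0.09 was not called (SE 0.15, 95% interval -0.21 to 0.38, adjusted p = 0.637). Its call turned with the scaling. CD44 was called as higher with total counts (0.61, or 0.03 above the median of all genes on that scale). It was called as lower when the trend of each library on transcript length was removed (-0.36), and when trends on length and GC share were taken out together (-0.60). VIM rose against CD44 whatever the scaling, from 3.35 and 3.14 VIM counts per CD44 count in shNT to 5.96 and 6.19 in shGlud1.

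CSPG4 (ENSG00000173546, GRCh38 chromosome 15, 75674322 to 75712848) had 3200 and 3612 counts in shNT and 3864 and 3754 in shGlud1. With TMM factors its level was 234 and 236 CPM in shNT and 193 and 163 CPM in shGlud1, a fall of 0.40 on the log2 scale with no overlap (-0.40, SE 0.13, adjusted p = 0.00593). With total counts the sign turned and CSPG4 was not called (0.11, or -0.46 against the median of all genes). With the length trend removed it fell by 1.01, and its longest transcript, 8.29 kb, is the longest of the 10. Its call also ended without shNT replicate 1 (-0.41, adjusted p = 0.0943) and without shNT replicate 2 (-0.40, adjusted p = 0.0988), at nearly the same fold change. Against CD44, CSPG4 was lower in both shGlud1 libraries: there were 3.09 and 3.07 CD44 counts per CSPG4 count in shNT and 3.85 and 4.87 in shGlud1. CSPG4 has related pseudogenes, and its counts were not whole numbers in any library. The 11 pseudogene rows summed to 112 and 106 counts in shNT and 192 and 196 in shGlud1, or 2.95 to 5.21 per 100 CSPG4 counts. An antisense gene with 563 shared exon bases (ENSG00000260892) had 17.5 to 42.4 counts.

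PROM1 (ENSG00000007062, GRCh38 chromosome 4, 15963076 to 16084378), long used as a surface marker of glioma stem cells, had a single count in shNT replicate 2 and none in the other libraries. The summed level was 0.0288 CPM of total counts in shNT, with a 95% exact Poisson interval of 0.00073 to 0.161. In shGlud1 the summed count was 0, and the same kind of interval ran from 0 to 0.103.

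FABP7 (ENSG00000164434, GRCh38 chromosome 6, 122779475 to 122784074) was low in every library, with 36 and 46 counts in shNT and 32 and 34 in shGlud1. Its level went from 2.64 and 3.01 CPM to 1.60 and 1.48 CPM, a log2 fold change of -0.88 (SE 0.37, 95% interval -1.60 to -0.15, adjusted p = 0.0302). This adjusted p was the highest among the 5 called members. The call ended when any of the 4 libraries was left out (adjusted p = 0.0595 to 0.162) and with DESeq2 (-0.93, adjusted p = 0.0939), though the fold change stayed between -0.97 and -0.78 over the left-out libraries. It also ended with total counts (-0.36, adjusted p = 0.4), no filter on low counts (0.0634) and either trend removed (0.15 and 0.0713). Among 9 related genes, FABP3 fell from 53 and 77 counts in shNT to 2 and 13 in shGlud1 (-3.67, but -2.99 without shGlud1 replicate 1 and -5.37 without shGlud1 replicate 2), and FABP5 from 77.9 ± 1.14 to 35.5 ± 2.32 CPM (-1.14). FABP5 has several pseudogenes that could share its reads. FABP6 was tested and not called (-0.20, and 0.30 with total counts), and FABP1, FABP2, FABP9, FABP12 and PMP2 had no count.

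**Figure D2:**
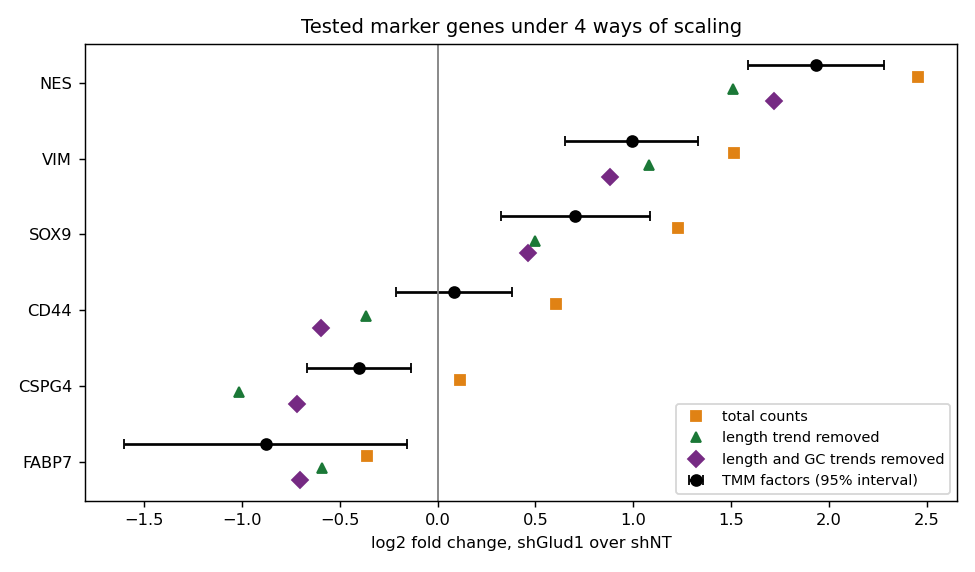
Log2 fold change, shGlud1 over shNT, of the 6 marker genes that could be tested, with TMM factors (black, with 95% intervals), total counts (squares), the length trend removed (triangles) and the length and GC trends removed (diamonds). NES, VIM and SOX9 lie above 0 in all 4 settings and FABP7 below it, while CD44 and CSPG4 lie on both sides of 0.

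Read against all genes, the calls under other scalings stand as follows. With total counts 4 members rose and none of the 6 fell, where 65.6% of all genes were called, 51.9% as risen and 13.7% as fallen. On removal of the length trend 3 members rose and 2 fell, where 55.6% of all genes were called, 27.0% as risen and 28.7% as fallen. With the length and GC trends removed 3 rose and 2 fell, where 55.5% were called, 27.3% as risen and 28.2% as fallen. With DESeq2 1 member fell, where 26.8% of all genes did, and with no filter on low counts 1 fell, where 16.4% did. Without shGlud1 replicate 1 or 2, 1 member fell, beside 28.5% and 25.1% of all genes. Without shNT replicate 1 or 2 none of the 6 did, beside 22.3% and 22.2%. At an unadjusted p under 0.05, 2 members fell without shNT replicate 1 and 0 without shNT replicate 2. The fallen pair under either trend removal was CD44 and CSPG4, not FABP7 and CSPG4.

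The order of the markers by level per kb of longest transcript was led in every library by VIM, CD44 and CSPG4. VIM was at 909 and 855 CPM per kb in shNT and 1664 and 1844 in shGlud1, CD44 at 126 to 139, and CSPG4 at 28.3 and 28.5 in shNT and 23.3 and 19.7 in shGlud1. SOX9, NES and FABP7 followed within a narrow range in shNT, at 2.20 and 2.28, 1.45 and 1.29, and 1.26 and 1.44 CPM per kb. NES and FABP7 overlapped in shNT, so their order there is not fixed. In shGlud1 the order was NES (5.36 and 5.12), SOX9 (3.40 and 3.88) and FABP7 (0.767 and 0.707), without overlap. VIM made up 71.3% and 69.9% of the counts of the 10 genes in shNT and 81.9% and 83.1% in shGlud1. CD44 made up 21.3% and 22.2% in shNT and 13.7% and 13.4% in shGlud1.

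Ratios of counts within a library need no scaling between libraries. Of the 15 pairs among the 6 tested members, all 15 had ratios that did not overlap between the groups, where 77.7% of all pairs of tested genes did the same. The order of change, read from these ratios, ran NES, VIM, SOX9, CD44, CSPG4 and FABP7. The widest gap was that of NES to FABP7, with 3.06 and 2.39 NES counts per FABP7 count in shNT and 18.6 and 19.3 in shGlud1. The closest pair was VIM and SOX9, with 281 and 255 VIM counts per SOX9 count in shNT and 331 and 322 in shGlud1. All ratios compare genes of different length, so a trend on length is not removed from them. With that trend removed CSPG4 (-1.01) fell further than FABP7 (-0.59), so the end of this order depends on it.

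**Figure D3:**
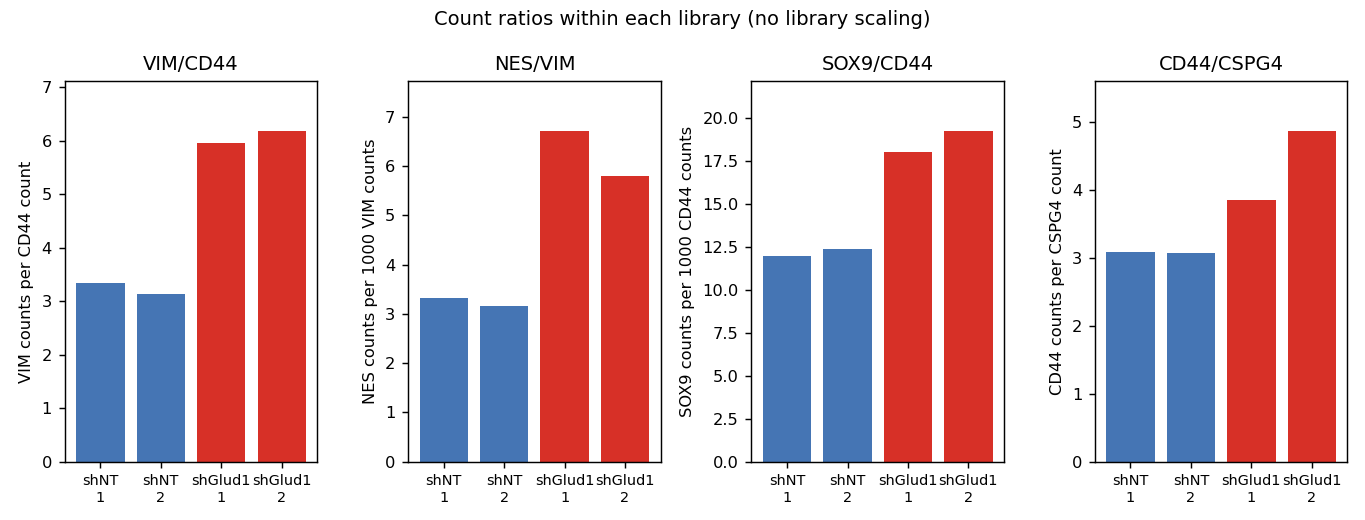
Count ratios within each library for VIM to CD44, NES to VIM (per 1000), SOX9 to CD44 (per 1000) and CD44 to CSPG4 (vertical axes from 0), with shNT libraries in blue and shGlud1 libraries in red. In each panel both shGlud1 bars are higher than both shNT bars, as for VIM per CD44 at 5.96 and 6.19 against 3.35 and 3.14.

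The VIM locus also holds an annotated gene on the opposite strand. VIM-AS1 shares 641 exon bases with VIM and had 49.9 and 55 counts in shNT and 108 and 148 in shGlud1. This was 0.122 to 0.158 counts per 100 VIM counts, and its log2 fold change was 0.71 (adjusted p = 0.0127). Without strand, reads of VIM and VIM-AS1 in the shared bases cannot be told apart. CD44-AS1, within CD44 on the opposite strand, had no count.

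Other stem and progenitor genes described in glioma moved in both directions. Of 22 genes besides SOX2, 17 could be tested, of which 7 rose and 5 fell (median 0.34). ITGA6, an integrin subunit used as a stem cell surface marker, rose from 6.28 ± 0.18 to 29.6 ± 4.67 CPM (2.24), and KDM1A, which encodes a histone demethylase, from 29.2 ± 1.23 to 84.4 ± 4.90 CPM (1.53). FUT4 (1.47), EZH2 (0.88), ID1 (0.84), PAX6 (0.81) and MSI2 (0.73) rose too. EZH2 and ID1 were also called with total counts and with either trend removed, while FUT4, PAX6 and MSI2 were not called with either trend removed. The 5 that fell were the Notch target genes HEY1 (-1.70) and HES1 (-1.72), MYC (-0.94), ID3 (-0.54) and ALDH1A3 (-0.30). ALDH1A3 turned to 0.23 and was not called under total counts, and lost its call without shGlud1 replicate 1 (adjusted p = 0.374), shNT replicate 1 (0.21) or shNT replicate 2 (0.159). ID3 was not called with total counts (-0.021), with the length trend removed (0.0083) or with length and GC trends removed (0.16). HES1 was not called without shNT replicate 2 (adjusted p = 0.0893). With total counts 10 of the list rose and 3 fell, where 51.9% of all genes rose and 13.7% fell. On removal of the length trend 4 rose and 5 fell, where 27.0% and 28.7% of all genes did. SALL2 and NANOG had no count.

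Astrocyte genes besides GFAP and SOX9 were unevenly present. Of 16, 11 could be tested, of which 3 rose, 2 fell and 6 were not called (median -0.05). CLU, which encodes clusterin, fell from 970 ± 0.69 to 397 ± 10.2 CPM (-1.29), and GLUL, the glutamine synthetase gene, from 166 ± 5.37 to 79.9 ± 2.19 CPM (-1.05). GJA1, which encodes the gap junction protein connexin 43, rose from 12.3 ± 1.50 to 25.7 ± 2.83 CPM (1.06). NFIA (2.63) and NFIB (0.73), genes of factors that promote astrocyte fate, rose from low levels of 0.135 ± 0.087 and 3.08 ± 0.83 CPM. NFIA had 1 and 3 counts in shNT and 10 and 29 in shGlud1, and lost its call with DESeq2 (adjusted p = 0.0516), without shNT replicate 1 (0.0737) and with length and GC trends removed (0.0604). Without shNT replicate 2 its log2 fold change was 3.48. NFIB lost its call with DESeq2 (0.121), without shGlud1 replicate 1 (0.0646), without shNT replicate 1 (0.247) and with either trend removed (0.733 and 0.931). Without shNT replicate 1, and with DESeq2, 1 gene of the list was called as risen, and with total counts 5 were. AQP4, the water channel of astrocyte endfeet, had no count, and S100B had 2 in all.

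Oligodendrocyte lineage genes besides OLIG2 and CSPG4 were mostly near 0. Of 15, 4 could be tested. MBP (1.10) and CNP (0.47) rose, from 4.31 ± 0.74 to 9.18 ± 1.39 CPM and from 65.4 ± 6.59 to 90.4 ± 2.66 CPM. Both calls ended with the length trend removed (0.44 and 0.087), and CNP was not called without shNT replicate 2 (adjusted p = 0.112). PDGFRA, the growth factor receptor gene of oligodendrocyte precursors, had 34 to 46.3 counts per library and was not called with TMM factors, but was called as lower with the length trend removed (-1.08). OLIG1, NKX2-2, SOX10 and MOG had no count.

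In contrast to these lineage lists, all 19 other mesenchymal glioma genes could be tested. Of these, 9 rose and 6 fell (median 0.29). MET (1.41), a receptor tyrosine kinase gene, rose from 18.9 ± 1.26 to 50.4 ± 6.73 CPM, and FN1 (0.99), which encodes fibronectin, from 107 ± 2.18 to 213 ± 0.55 CPM, though FN1 was at 0.15 and not called once length and GC trends were removed. RELB, an NF-kB subunit gene, fell from 183 ± 15.4 to 83.5 ± 10.3 CPM (-1.14). TIMP1 (-0.63) also fell with TMM factors, but lost its call with total counts (-0.11), with the length trend removed (-0.040) and with both trends removed (0.13). Under total counts 12 of the list rose and 1 fell, where 51.9% of all genes rose and 13.7% fell.

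Genes of CD44's ligands, partners and proteases moved in both directions. Of 16, 13 could be tested, of which 8 rose and 3 fell (median 0.79). ADAM10, which encodes a protease that cleaves CD44, rose from 15.1 ± 0.051 to 33.2 ± 6.91 CPM (1.14), and NF2, which encodes merlin, a protein that binds the CD44 tail, from 25.7 ± 1.44 to 52.3 ± 0.71 CPM (1.02). The hyaluronan synthase genes HAS1 (-1.63, from 37.6 ± 1.80 to 12.2 ± 0.19 CPM) and HAS3 (-1.47) fell, as did SRGN (-0.91), which encodes the proteoglycan serglycin. The 8 risen and 3 fallen were counted again with either trend removed. Among 11 proteoglycan genes besides CSPG4, 7 could be tested, of which 2 rose and 3 fell (median 0.04). SDC1 rose (0.90) and GPC1 fell (-1.16) in every scaling. VCAN (0.61) was called as higher with TMM factors, but was at -0.080 and not called with the length trend removed, and was called as lower, at -0.31, once GC was added to it. SDC2 (-0.39) and SDC4 (-0.43) turned to 0.13 and 0.10 under total counts and were not called there. Both also lost their calls without shNT replicate 1 (adjusted p = 0.104 and 0.269). Without shNT replicate 1 only 1 gene of this list fell.

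**Figure D4:**
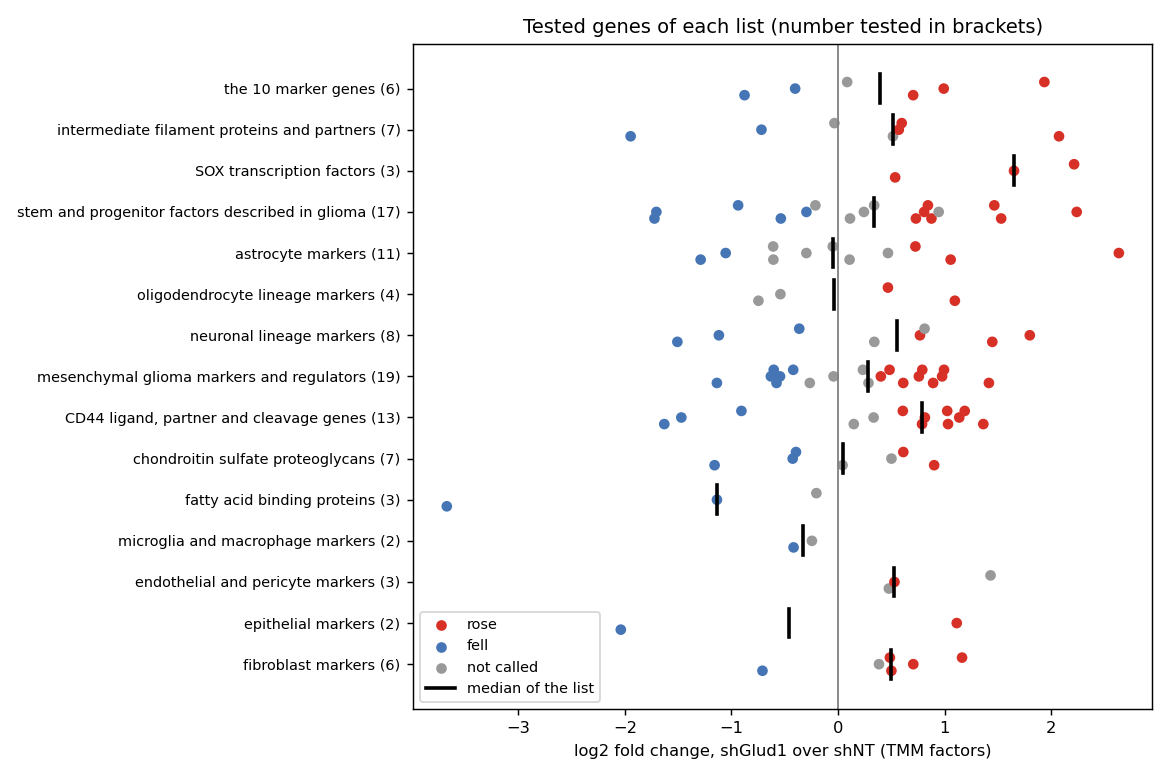
Log2 fold change with TMM factors (horizontal axis) of every tested gene in the marker set and in each list, coloured by its call, with the median of the list as a black line and the number tested in brackets. All 3 tested SOX genes lie above 0, while the stem and progenitor, astrocyte and mesenchymal lists spread to both sides.

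Markers of microglia, macrophages, endothelial cells and pericytes were mostly near 0, while neuronal, epithelial and fibroblast genes, given further below, were present in part. Of 8 microglia and macrophage genes, AIF1, CX3CR1, TYROBP and P2RY12 had no count and PTPRC had 2 in all. Their summed level of 407 and 365 CPM in shNT and 296 and 283 CPM in shGlud1 came almost wholly from CD68, a lysosomal protein gene that was at 378 ± 29.6 and 283 ± 10.6 CPM (-0.42, called with TMM factors, and 0.10 and not called with total counts). CD68 was also not called without shNT replicate 1 (adjusted p = 0.212) or shNT replicate 2 (0.0528), nor with either trend removed. The summed level of 7 endothelial and pericyte genes was 8.43 to 9.08 CPM in shNT and 12.7 to 12.9 CPM in shGlud1, with MCAM (0.53) the single called gene, and MCAM lost its call without any of the 4 libraries (adjusted p = 0.0527 to 0.218). Whether these genes have a part in the values of the 10 markers was not tested.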

How the data were processed

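Per the labels' protocols, poly-A RNA was made into TruSeq V2 libraries, which do not mark strand. The authors deposited expected counts (estimated reads per gene, of which 20.1% of those above 0 are not whole). The tools named per the submitters' processing notes are Bowtie 0.12.2 with build mm8, a mouse genome, whereas every row has a human Ensembl ID. The program that counted reads is not given in the sources used here.

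Counts were rounded and genes were kept by filterByExpr (minimum count 10, which left 14616). The groups were compared by edgeR 4.0.16 (R 4.3.3) with TMM factors and the robust quasi-likelihood test, after testing on simulated data. In the simulation 32.8% of 1.5-fold, 70.1% of 2-fold and 97.0% of 4-fold changes were recovered, and 13 unchanged genes were called. Only 200 of the 14616 genes were changed there, with no trend on length or GC, whereas 61.0% were called in the data. These rates therefore need not hold for the real comparison, and they do not measure its dependence on scaling. Adjusted p is Benjamini-Hochberg over all genes tested, with calls under 0.05. SE is the absolute log2 fold change over the square root of F. Alternatives were DESeq2 1.42.0, limma-voom (limma 3.58.1), other factors, filters, a replicate block, each library left out, and removal of lowess trends (span 0.3) on the longest GENCODE 29 transcript and its GC share. A length was found for 97.6% of tested genes. Coordinates of genes are those of GENCODE 29 on GRCh38, matched by Ensembl ID. Poisson intervals (95%) and the limit of 3 counts use total counts and cover counting error only, since PCR copies are not marked.

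Members, lists and alternatives were chosen with earlier results of these data known. All members are named, as are up to 2 called genes in each direction per list by lowest p. SOX13, PLEC, HES1, ALDH1A3, ID3, NFIB, SRGN, SDC4, RBFOX3, TUBB3, COL1A1 and THY1, and genes given only as untested, uncalled or without counts, were named after their values were seen. So were FUT4, EZH2, ID1, PAX6 and MSI2. List counts leave out the 10 members. PECAM1 was not analysed here. Python 3.11.15 with scipy 1.17.1 and matplotlib 3.10.9 was used for intervals and figures.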

Additional observations from a re-analysis of the deposited data

How the results depend on the processing

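The rises of NES (log2 fold change 1.51 to 2.45), VIM (0.88 to 1.51) and SOX9 (0.46 to 1.23) were called in all 14 alternatives. With total counts CD44 joined them, giving 4 risen genes. The number of fallen members, 2 with TMM factors, was 1 with DESeq2, 1 with no filter on low counts and 0 with total counts (0 also at an unadjusted p under 0.05), and ran from 0 to 1 when a library was left out. With either trend removed it was again 2, but the genes were CD44 and CSPG4. The median log2 fold change of tested marker genes was 0.92 with total counts, 0.0666 with the length trend removed and -0.0683 with GC added to it. CD44 turned to -0.36 and -0.60 with these trends removed, and CSPG4 to 0.11 with total counts; the cause was not tested.

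Other genes named as called with TMM factors changed sign 14 times: with total counts ALDH1A3 (0.23), CD68 (0.10), SDC2 (0.13), SDC4 (0.10) and TUBB3 (0.16); with the length trend removed COL1A1 (-0.044), ID3 (0.0083), PLEC (-0.10) and VCAN (-0.080); with length and GC trends removed CD68 (0.035), ID3 (0.16), TIMP1 (0.13), TUBB3 (0.22) and VCAN (-0.31). With total counts 79.1% of all calls were rises, against 52.3% with TMM factors.

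With the replicate number as a block, 3 members rose and 2 fell, as without it, and the calls over all genes went from 8919 to 9046. The numbers were not shown to pair libraries: the deviations of same-numbered libraries had a correlation of 0.04 across genes. The chi-square per degree of freedom was 5.87 within the shNT pair and 15.1 within the shGlud1 pair, so no pair was a single library deposited again. Depth limits GFAP, SOX2, PROM1 and OLIG2.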

Other observations

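Neuronal lineage genes were present in part. Of 15, 8 could be tested, of which 3 rose and 3 fell (median log2 fold change 0.55, edgeR with TMM factors). The cell adhesion gene NCAM1 rose from 9.55 ± 1.21 to 26.0 ± 3.51 CPM (1.45), and GAP43, a gene of growing axons, from 13.7 ± 1.64 to 23.3 ± 0.67 CPM (0.77). RBFOX3, which encodes the neuronal nuclear antigen NeuN, was called as higher (1.80) on 3 and 4 counts in shNT and 16 and 21 in shGlud1, and lost its call with DESeq2 (adjusted p = 0.133) and without any of the 4 libraries (0.083 to 0.162). MAP2 (-1.12), SYP (-1.51) and the neuronal tubulin gene TUBB3 (-0.36) fell with TMM factors. TUBB3 turned to 0.16 and MAP2 lost its call (adjusted p = 0.053) under total counts. There 5 of the list rose and 1 fell, beside 51.9% risen and 13.7% fallen among all genes. TUBB3 was also not called without shNT replicate 1 (0.243) or shNT replicate 2 (0.0899). DCX, STMN2, ELAVL3 and ELAVL4 had no count.

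Of 6 epithelial genes, the keratin gene KRT14 had the highest level and fell from 54.8 ± 2.96 to 13.4 ± 0.90 CPM (-2.04), and CLDN4 rose from 1.50 ± 0.47 to 3.28 ± 0.10 CPM (1.11), a call that ended with DESeq2 (adjusted p = 0.0531) and without shNT replicate 1 (0.0906). Of 7 fibroblast genes, 6 could be tested, and COL1A2 (0.71), COL1A1 (0.50), FAP (1.16) and THY1 (0.49) rose while LUM (-0.71) fell. With the length trend removed 2 of these rose and 1 fell, COL1A1 being at -0.044 and COL1A2 at 0.23, and COL1A2 was at 0.037 and not called with GC added. LUM was at -0.19 and not called with total counts (adjusted p = 0.437). Without shNT replicate 2 the list had 2 risen genes and none that fell, as COL1A1 (adjusted p = 0.262), THY1 (0.122) and LUM (0.0733) lost their calls. COL1A1 also lost its call without shGlud1 replicate 1 (0.152).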
